A study of Mus musculus with 9 samples.

Results

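Cytosolic ribosomal proteins are the protein part of the ribosome: those of the small subunit (Rps genes) hold the messenger RNA that is being decoded, and those of the large subunit (Rpl genes) surround the site where the peptide bond is made and the tunnel through which the new chain leaves. Cells make these proteins in matched amounts, and in mammals most of their messenger RNAs start with a run of pyrimidines, the 5′ terminal oligopyrimidine (TOP) motif, through which the mTOR pathway controls their translation. The genes were chosen by name alone: a probe belonged when its annotated symbol was Rps or Rpl followed by a number (with the suffix a, l, al or x where present), Rplp0 to Rplp2, or Rpsa, which leaves out the S6 kinases and pseudogenes. This gave 89 of the 45281 probes and 60 of the 19057 genes with a symbol of their own: 22 of the small subunit, 30 of the large subunit, 3 of the stalk (the arm of the large subunit that recruits translation factors) and 5 named as paralogs of another member.

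The samples were primary microglia, brain-resident macrophages, grown from the cortex of C57BL/6J pups 1 to 5 days old that were wild type for the cannabinoid receptor 2 gene (CB2+/+). Unstimulated cells were compared with cells given LPS and IFNγ (20 ng/ml) for 16 h, a classical inflammatory stimulus, and with cells kept for 48 h in interleukin-4 (IL-4) at 100 U/ml, a cytokine of alternative activation. The unit of the LPS dose is incomplete in the labels, and no culture time is given for the unstimulated cells, so the groups differ in time as well as in stimulus. Each group has 3 arrays, nothing says that they came from separate cultures, and the p-values therefore measure only the spread between these samples.

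RNA was hybridised to Illumina bead arrays. The arrays lay on 2 slides: slide 1 held LPS + IFNγ replicates 1 and 2 and IL-4 replicates 1 and 2, and slide 2 held the other 5, including all unstimulated arrays. LPS + IFNγ replicate 2 stood apart, at a mean intensity of 112; 6208 of its probes were detected. The other 8 arrays had 311 to 379 and 14475 to 16435. The test counts and median differences of the whole family after LPS + IFNγ are given with and without it. Values of single genes include it unless stated. Of 10 microglia markers, 9 were measured, and all 9 were detected on all 3 unstimulated arrays. Of 24 markers of astrocytes, oligodendrocytes, neurons and vessel or connective tissue cells, 10 were measured, and Gfap, Aqp4, Mog, Snap25, Syt1, Cldn5, Cdh5 and Col1a1 were among those that were not.

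A gene counted as measured when a probe for it had a detection p-value under 0.05 on at least 3 arrays, and the brightest such probe stands for the gene. Of the 60 genes 52 were measured, through 71 probes, and 47 of them were detected on all 9 arrays. Measured were 19 small subunit genes, 27 large subunit genes, 3 stalk genes and 3 paralogs. Rpl14, Rpl17, Rpl6, Rps20, Rps23, Rpsa (the laminin receptor homolog of the small subunit), Rpl3l and Rpl39l were not measured; each was detected on at most 1 array. Rpl3l and Rpl39l are known for expression restricted to muscle and testis in mammals, and the other 6 encode constitutive parts of the ribosome; why their probes were not detected was not tested, and no statement about these genes is made. Ribosomal protein genes also have many near-identical processed copies in the mouse genome, and the signal of a gene and of a transcribed copy cannot be told apart here.

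To show the starts from which these messenger RNAs are made, the sequences around the annotated start site are given for the 6 genes with the largest falls after LPS + IFNγ among those past the test for which a promoter is listed. Each runs from 25 bases before the start site to 25 bases from it on (RefSeq, build GRCm38.p6, the gene's own strand, 5′ to 3′), and capitals mark runs of at least 5 C or T letters. For Rps19 the first of 3 listed starts is shown.
Rps19 (chr7:24884567-24884616, plus strand): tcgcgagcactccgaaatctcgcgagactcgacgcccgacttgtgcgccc
Rps16 (chr7:28350664-28350713, plus strand): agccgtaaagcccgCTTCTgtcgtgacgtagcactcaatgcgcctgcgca
Rpl26 (chr11:68901541-68901590, plus strand): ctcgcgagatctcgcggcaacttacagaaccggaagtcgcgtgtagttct
Rpl28 (chr7:4792940-4792989, plus strand): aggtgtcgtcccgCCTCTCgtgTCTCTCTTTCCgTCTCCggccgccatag
Rps4x (chrX:102189367-102189416, minus strand): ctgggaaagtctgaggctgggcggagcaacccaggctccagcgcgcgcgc
Rpl39 (chrX:37085198-37085247, minus strand): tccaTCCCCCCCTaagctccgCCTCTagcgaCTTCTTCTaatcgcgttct
Rpl28 shows the TOP pattern at its start, an unbroken run of 11 pyrimidines that crosses the start site, while the longest run in the windows of Rps19, Rpl26 and Rps4x was 4. A promoter is listed for 49 of the 60 genes. In the shares that follow, a gene counted when any of its listed starts had the feature, so genes with several starts had several windows. A run of at least 8 pyrimidines lay in the same window on the gene's strand for 24 of these 49 (49.0%), against 3831 of 17443 other protein-coding genes (22.0%). The letters CTTTC stood there in 26.5% of ribosomal protein genes and 7.07% of other genes. Over the whole 300 bases and on both strands, CCGGAAG, the core recognised by ETS factors, was present in 44.9% against 12.9%. AAGATGG, the core of YY1 sites, was present in 14.3% against 7.16%. The pyrimidine run was present in 11 of 23 measured genes that fell after LPS + IFNγ and in 11 of 20 that did not pass the test. Annotated starts can lie some bases from the start used in these cells, so a window without the run says only that these letters are not there.

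Ribosomal protein messenger RNAs were lower after LPS + IFNγ than without stimulus. Of the 52 genes, 25 fell and 0 rose (limma, adjusted p under 0.05 over all probes), which is 48.1% of them, against 12.2% of all 9391 genes measured that fell and 6.12% that rose. The median log2 difference of the 52 genes was -0.83, with a middle range from -1.11 to -0.58, against -0.22 over all genes. In 41 of the 52 (78.8%) every LPS + IFNγ array lay below every unstimulated array, an arrangement found in 27.0% of all genes. Since whole cultures were measured, less RNA per cell and fewer cells expressing a gene cannot be told apart. The summed log2 signal of the 9 measured microglia markers was also lower, at 72.7 to 75.3 against 86.6 to 93.6; 5 of the 9 fell, 0 rose and 3 lay above 0. The 4 measured oligodendrocyte markers summed to 27.7 to 34.4 against 27.5 to 30.0, the 3 astrocyte markers to 16.5 to 16.6 against 13.4 to 15.8, the 1 neuron marker to 4.32 to 4.71 against 4.56 to 5.02, and the 2 vessel and connective tissue markers to 11.5 to 15.9 against 14.8 to 15.5. Of the oligodendrocyte markers 2 rose and 1 fell (median 1.08, from -2.54 to 1.67), and 0 markers of the other 3 kinds passed. The part of these cell types in the ribosomal result was not tested.

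**Figure D1:**
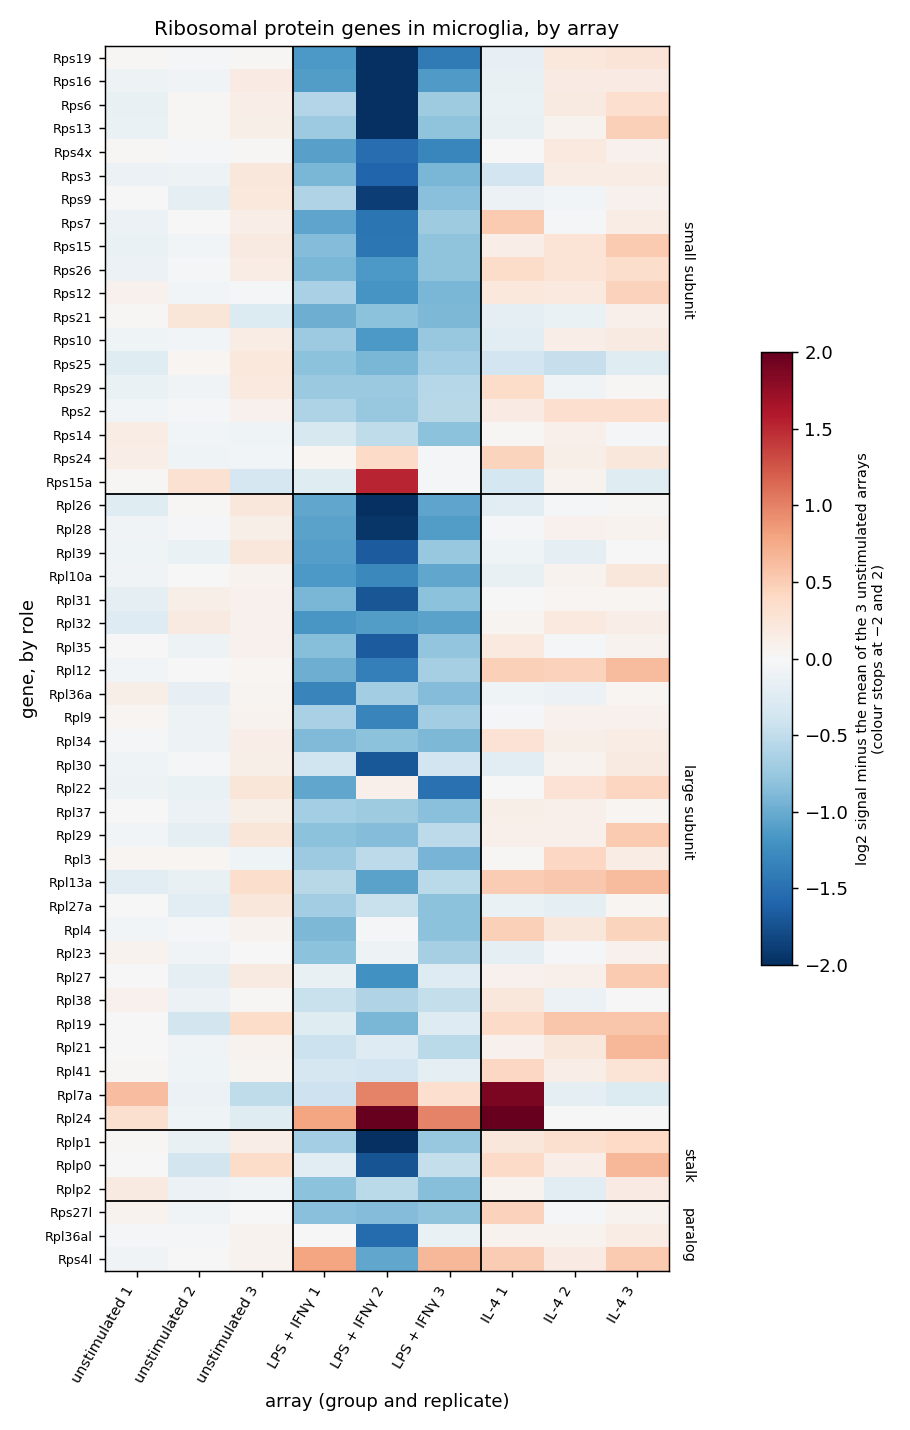
Log2 signal of the 52 measured ribosomal protein genes (rows, grouped by role) on the 9 arrays (columns), each as the difference from the mean of the 3 unstimulated arrays; blue is lower, red is higher, and the colour stops at -2 and 2. LPS + IFNγ replicates 1, 2 and 3 were below the unstimulated mean in 48, 47 and 49 of 52 genes, and of these 3 arrays replicate 2 shows the widest departures in both directions.

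Among the 19 measured small subunit genes 11 fell and 0 rose, and 17 had non-overlapping arrays. Rps19, whose human counterpart is mutated in Diamond-Blackfan anaemia, stood at 13.26, 13.20 and 13.26 on the unstimulated arrays and at 12.09, 10.73 and 11.83 on the LPS + IFNγ arrays (normalized log2 signal). It fell by 1.68 ± 0.35 on the log2 scale (SE, n = 3 arrays per group, adjusted p = 0.0127). The unstimulated values were nearly equal, and all 3 stimulated values lay below them, replicate 2 lowest. In the raw intensities the stimulated values also lay below the others, at 11355, 11942 and 14627 without stimulus against 6643, 190.4 and 5423 on LPS + IFNγ replicates 1, 2 and 3. Replicate 2 was dim as a whole array, so its raw value is not comparable with the others.

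Rps16, a small subunit protein near the decoding site, stood at 12.20, 12.23 and 12.47 without stimulus and at 11.19, 9.68 and 11.16 after LPS + IFNγ. It fell by 1.62 ± 0.39 (adjusted p = 0.0246). Rps4x, the X-linked S4 protein, gave 13.22, 13.16 and 13.22 without stimulus and 12.12, 11.68 and 11.90 after LPS + IFNγ, with the 3 stimulated arrays closer together than for Rps19. It fell by 1.30 ± 0.20 (adjusted p = 0.00354), the lowest adjusted p among the 52 genes. Rps3, which lines the channel where messenger RNA enters, fell by 1.13 ± 0.27, Rps7 by 1.07 ± 0.26 and Rps15 by 1.03 ± 0.25 on the same scale. Rps26, Rps12, Rps21, Rps10 and Rps25 fell by 0.96, 0.92, 0.90, 0.88 and 0.81.

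Rps6, the substrate of the S6 kinases, shows how the weak array acts on the test. Its values were 11.55, 11.71 and 11.82 without stimulus and 11.11, 8.20 and 10.99 after LPS + IFNγ. The groups did not overlap, but the difference of -1.59 ± 0.68 did not pass (adjusted p = 0.160). Without replicate 2 it passed, at -0.64 ± 0.20 (adjusted p = 0.0384). Rps24, a small subunit protein known to be made from alternatively spliced messenger RNAs, and Rps15a were the small subunit genes whose arrays overlapped between groups. Rps24 differed by 0.13 ± 0.21 (adjusted p = 0.709), with 13.61, 13.40 and 13.43 without stimulus and 13.52, 13.87 and 13.44 after it.

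Of the 27 measured large subunit genes 13 fell, 0 rose, and 21 had all LPS + IFNγ arrays below the unstimulated ones. Rpl26, which lies near the exit of the tunnel, stood at 11.71, 11.98 and 12.19 without stimulus and at 10.92, 9.57 and 10.91 after LPS + IFNγ, and fell by 1.49 ± 0.37 (adjusted p = 0.0263). Rpl28 gave 12.60, 12.63 and 12.78 against 11.60, 10.73 and 11.56 and fell by 1.37 ± 0.27 (adjusted p = 0.00953). Replicate 2 was again the lowest array for both. Rpl39, a small protein that lines the exit tunnel, gave 12.79, 12.73 and 13.09 against 11.77, 11.20 and 12.11 and fell by 1.18 ± 0.27.

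For other large subunit genes the 3 stimulated arrays were close to each other. Rpl10a, part of the stalk that moves with the exiting transfer RNA, gave 13.05, 13.13 and 13.19 without stimulus and 11.97, 11.84 and 12.09 after LPS + IFNγ, and fell by 1.16 ± 0.20 (adjusted p = 0.00562). Rpl32 gave 12.53, 12.97 and 12.87 against 11.63, 11.68 and 11.72 and fell by 1.12 ± 0.20 (adjusted p = 0.00671). In both genes the weak array lay with the other stimulated arrays, and the gap to the unstimulated arrays was wider than the spread within either group. Rpl31 fell by 1.15 ± 0.27 and Rpl35 by 1.11 ± 0.27. Rpl12, which anchors the stalk, fell by 1.00 ± 0.23, and Rpl36a, Rpl9, Rpl34, Rpl37 and Rpl3 fell by 0.96, 0.89, 0.86, 0.74 and 0.73.

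Rpl24, Rpl7a and Rpl41 were the large subunit genes at the other end. Rpl24 gave 6.89, 6.48 and 6.32 without stimulus and 7.35, 9.16 and 7.56 after LPS + IFNγ; it was the 1 gene of the 52 with all stimulated arrays above the unstimulated ones (14.0% of all genes). Its difference of 1.46 ± 0.79 did not pass (adjusted p = 0.260), and its probe also read 9.42 on IL-4 replicate 1 against 6.55 and 6.56 on replicates 2 and 3. Rpl41, which encodes the smallest ribosomal protein, differed by -0.31 ± 0.19 (adjusted p = 0.323).

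The stalk genes Rplp0, Rplp1 and Rplp2 did not pass. Rplp1 gave 13.95, 13.79 and 14.06 against 13.26, 11.85 and 13.18 and differed by -1.17 ± 0.36 (adjusted p = 0.0621). Rplp2 gave 13.57, 13.28 and 13.33 against 12.58, 12.86 and 12.54 and differed by -0.73 ± 0.21 (adjusted p = 0.0507). Rplp0, often used as a reference gene, differed by -0.81 ± 0.40 (adjusted p = 0.220), with overlapping arrays. Without the weak array Rplp1 and Rplp2 passed, at -0.66 and -0.81 (adjusted p = 0.0174 and 0.0108), and Rplp0 stood at -0.40 (adjusted p = 0.307).

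The 3 measured paralogs went apart. Rps27l, the p53-induced relative of Rps27, gave 12.23, 12.09 and 12.17 without stimulus and 11.32, 11.30 and 11.36 after LPS + IFNγ, and fell by 0.84 ± 0.21 (adjusted p = 0.0264). Rpl36al, a relative of Rpl36a, differed by -0.56 ± 0.38 (adjusted p = 0.359), and by -0.07 without the weak array (adjusted p = 0.784). Rps4l, a relative of Rps4x, gave 7.17, 7.24 and 7.32 without stimulus and 8.03, 6.20 and 7.90 after LPS + IFNγ. Replicates 1 and 3 lay above and replicate 2 below the unstimulated arrays, so that the difference was 0.14 ± 0.45 (adjusted p = 0.859) with all arrays and 0.80 ± 0.19 (adjusted p = 0.0130) without replicate 2.

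**Figure D2:**
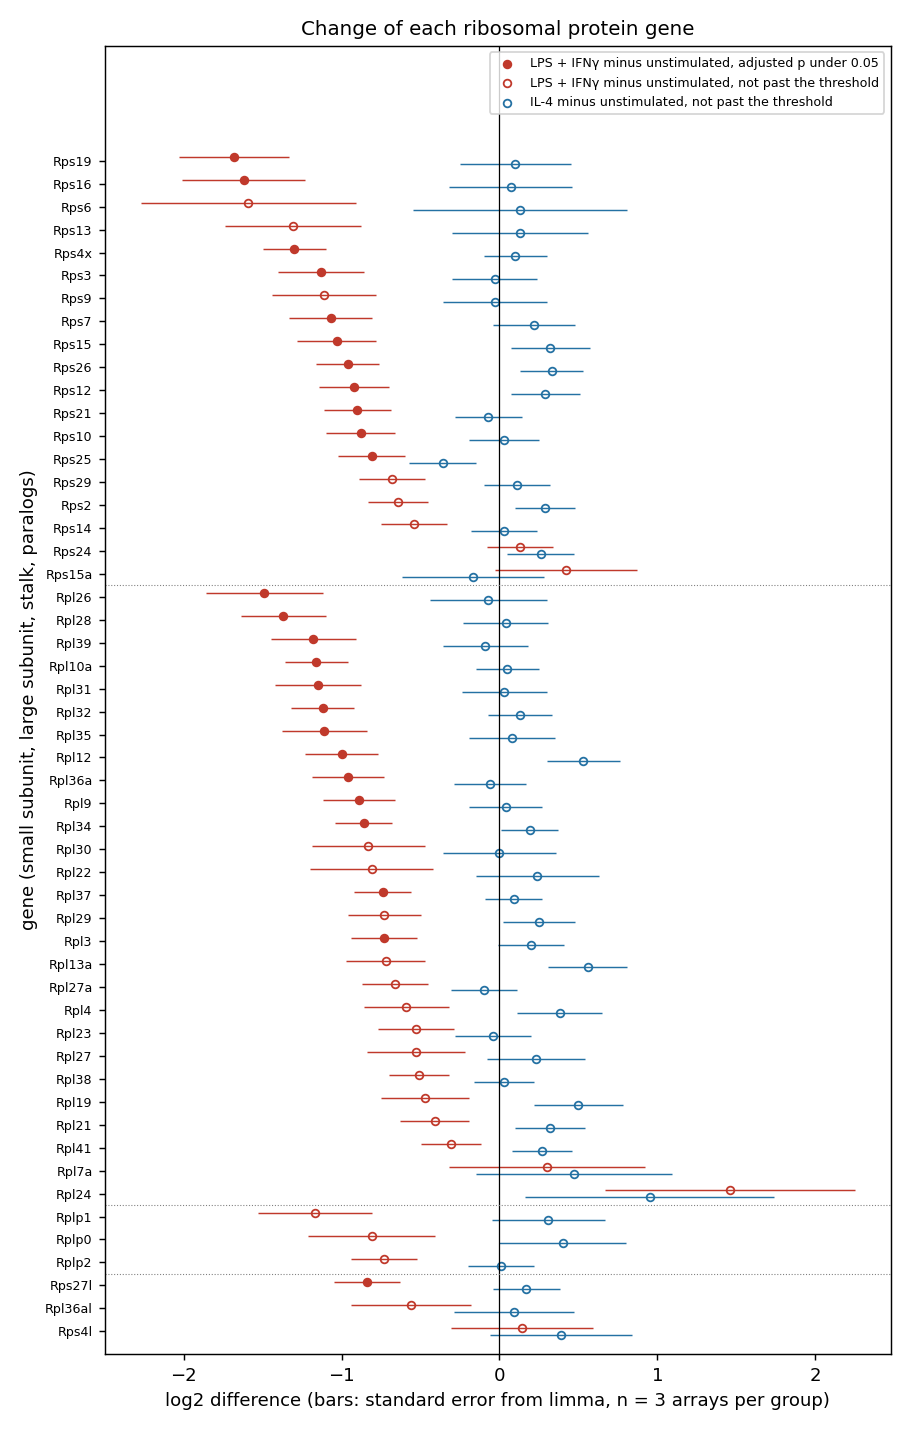
Log2 difference from unstimulated cells for each measured ribosomal protein gene after LPS + IFNγ (red) and after IL-4 (blue), with standard errors from limma (n = 3 arrays per group); filled points passed an adjusted p of 0.05. The red points centre on -0.83 and the blue ones on 0.12.

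Of the 14 genes with at least 2 measured probes, 13 had all probes on the same side of 0 in this comparison; Rps13 was the exception, with a dim second probe at 0.19. In Rps12 and Rps3 every probe passed, in 4 genes some did, and in 8 no probe passed. For Rpl28 and Rpl31 the probe standing for the gene was the only one to pass, and another stood at -0.34 and -0.51. For Rpl27a the probe standing for the gene differed by -0.66 (adjusted p = 0.0733), while a second probe fell by 1.42 (adjusted p = 0.0215). For Rps24, 1 probe other than the brightest rose, by 1.16 (adjusted p = 0.0333), and was the 1 of the 71 ribosomal probes that did. Over probes, 28 of 71 fell, against 10.4% of all 16895 probes that fell and 5.33% that rose.

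The members differed less from array to array in the other groups. The median SD of a gene over its 3 arrays was 0.13 in unstimulated cells, 0.15 after IL-4 and 0.37 after LPS + IFNγ. In the last group replicates 1 and 3, on different slides, differed by a median of 0.12, and replicate 2 was the lowest of the 3 in 34 genes and the highest in 14. Taken singly, LPS + IFNγ replicates 1, 2 and 3 had a median difference from the unstimulated mean of -0.74, -1.10 and -0.78. When replicate 2 was left out, 36 genes fell, Rps4l rose, and the median was -0.73. Calls grew over the whole array as well: 20.2% of all genes then fell, in place of 12.2%. The sizes and order of the falls also changed. Rps19, Rps16, Rpl26 and Rpl28 fell less than with all arrays, at -1.25, -1.11, -1.03 and -1.06, while Rpl36a fell more, at -1.08. Rpl22, which did not pass with all arrays, then had the largest fall, at -1.35 (limma, adjusted p = 0.00266).

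Slide bears on the result because no unstimulated array lay on slide 1. With slide as a block Rps4x was the 1 gene that passed (adjusted p = 0.0330), where 4.54% of all genes fell, and the median was -0.79. Within slide 2, where 1 LPS + IFNγ array meets the 3 unstimulated ones, the median was -0.78 and 12 genes fell (13.2% of all genes); the lone array is there assumed to vary like the others. With slide as a block and replicate 2 left out, a choice made after seeing the data, 24 genes fell (15.2% of all genes) and the median was -0.70.

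A measure that needs no scaling between arrays is the rank of a gene's raw intensity within its own array. The median percentile of the 52 genes among the 9391 was 98.3, 98.4 and 98.7 on the unstimulated arrays and 96.3, 93.5 and 96.3 on LPS + IFNγ replicates 1, 2 and 3. All 3 stimulated arrays lay below all 3 unstimulated ones by this measure in 40 of the 52 genes (76.9%), against 21.4% of all genes, and above them in 1, against 19.7%. These percentiles rank probe signals, which depend on each probe's binding as well as on the RNA. The brightest probes of the family were those of Rps29, Rpl41 and Rps12 and the dimmest those of Rpl21, Rpl7a and Rps15a. A share of the summed intensity was also taken, over 1 probe per measured gene, after subtracting each array's lowest probe intensity. By this measure the family took 5.81% to 6.40% on the unstimulated arrays, 4.18%, 2.48% and 4.14% on the LPS + IFNγ arrays and 6.54% to 7.08% on the IL-4 arrays.

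**Figure D3:**
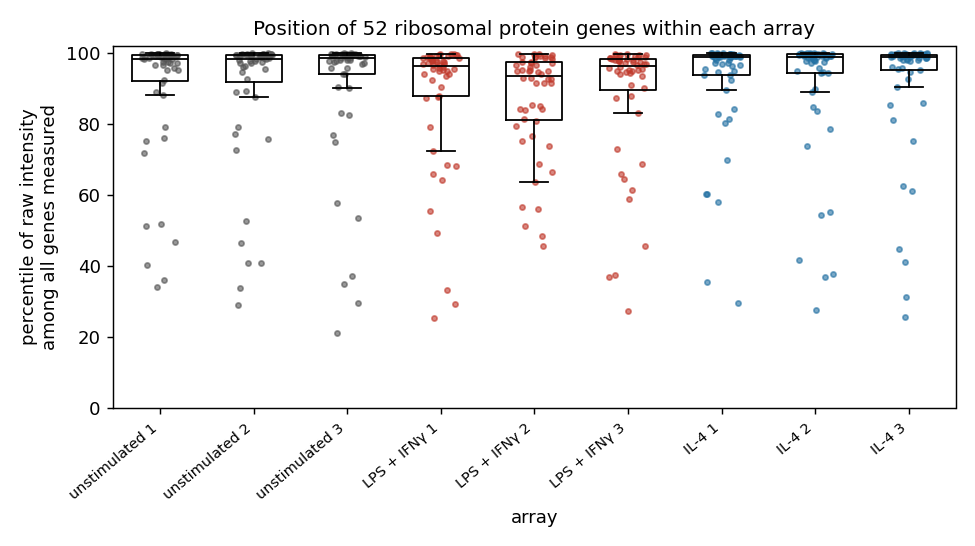
Percentile of each of the 52 ribosomal protein genes by raw intensity among the 9391 genes of the same array; boxes span the quartiles, the line is the median and whiskers reach the last point within 1.5 box lengths. The medians were 98.3 to 98.7 in unstimulated cells, 93.5 to 96.3 after LPS + IFNγ and 98.8 to 98.9 after IL-4.

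How far the family fell depended on the scaling. Quantile normalization, used throughout, gave -0.83. Cyclic loess gave -0.46 with 16 genes lower (12.1% of all genes fell) and Rps4l higher. Centring each array on the median of other, always-detected probes gave -0.70 with 0 genes passing, where 2.79% of all genes fell (26 of the 52 had an unadjusted p under 0.05). That last scaling moved the median of all genes from -0.22 to 0.35, so that relative to all genes the family stood at -1.05 in place of -0.61. It also turned the share of rises among all called genes from 33.5% to 60.2%, and cyclic loess turned it to 45.9%. Centring on other probes with replicate 2 left out, chosen after seeing the data, gave -0.26, or -0.37 relative to all genes. Of the 52 genes 7 fell (Rps19, Rps4x, Rps16, Rpl32, Rpl36a, Rpl22 and Rpl4) and Rps4l rose. That share of falls was no larger than the 16.2% of all genes that fell under the same setting. The median of the family was below 0 in each of the 25 alternatives run, between -1.08 and -0.26.

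**Figure D4:**
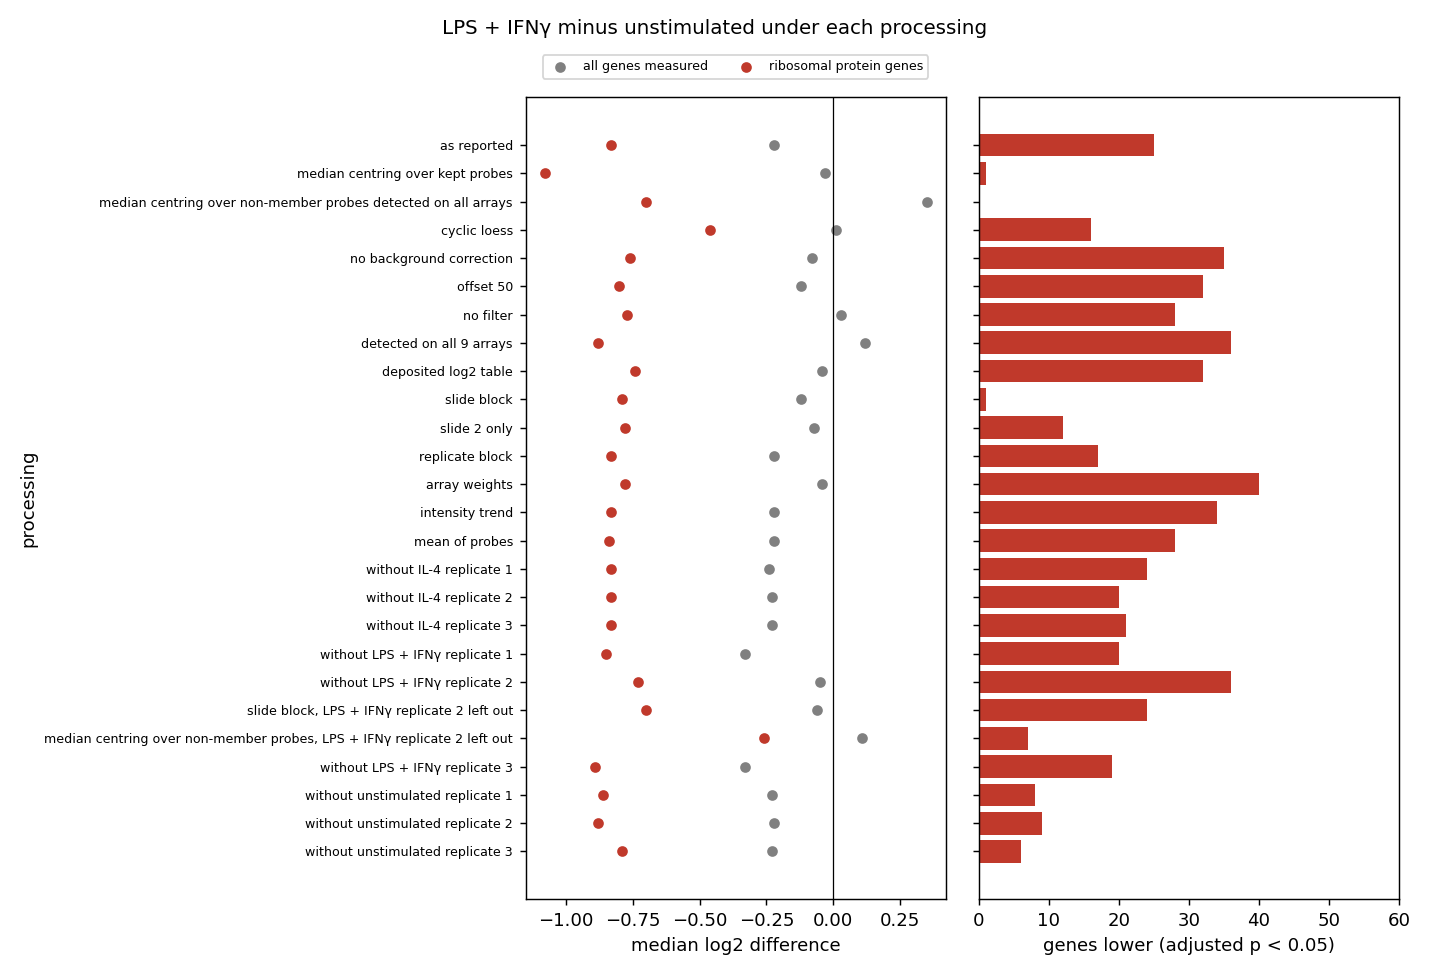
LPS + IFNγ minus unstimulated under each processing: on the left the median log2 difference of the ribosomal protein genes (red) and of all genes measured (grey), on the right the number of ribosomal protein genes that fell at an adjusted p under 0.05. The red points lie between -1.08 and -0.26, and the counts between 0 and 40.

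IL-4 left the ribosomal protein genes near their unstimulated values. Of the 52 genes 0 passed in either direction (limma), 2 had an unadjusted p under 0.05, and 0 passed in any of the 25 alternatives; 0.0639% of all genes rose and 0 fell in this comparison. The median log2 difference was 0.12, against 0.01 over all genes, and 42 of the 52 were above 0. In 12 genes (23.1%) all IL-4 arrays lay above all unstimulated ones, against 10.0% of all genes, and in 0 they lay below, against 8.23%. By percentile within the array 11 lay above (21.2%, against 9.49%) and 0 below (against 8.58%). The genes with an unadjusted p under 0.05 were Rpl12, at 12.39, 12.37 and 12.54 against 11.85, 11.92 and 11.95, and Rpl13a, at 9.57, 9.60 and 9.69 against 8.85, 8.91 and 9.41. They differed by 0.53 ± 0.23 and 0.56 ± 0.25 (adjusted p = 1 for both). Rpl13a is known in human monocytic cells as a part of the complex that represses translation after interferon-gamma. Among small subunit genes the differences ran from -0.36 to 0.33, with Rps25 lowest, and among stalk genes from 0.01 to 0.40.

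Set against IL-4, LPS + IFNγ gave lower values in more genes. Of the 52 genes, 31 fell and 0 rose (59.6%, against 11.6% of all genes that fell and 5.69% that rose), with a median of -0.98 against -0.24 over all genes. In 45 genes (86.5%) every LPS + IFNγ array lay below every IL-4 array, against 26.8% of all genes, and in 0 above, against 12.6%. By percentile within the array 45 lay below as well (against 20.8%) and 0 above (against 18.5%). This comparison and that with unstimulated cells share the LPS + IFNγ arrays; 24 genes fell in both, 7 against IL-4 alone and Rps25 against unstimulated cells alone. The summed log2 signal was 83.2 to 84.2 after IL-4 for the 9 microglia markers, 18.5 to 20.6 for the 2 vessel and connective tissue markers and 5.23 to 5.83 for the 1 neuron marker, all above the LPS + IFNγ ranges given above. It was 13.9 to 21.5 for the 3 astrocyte and 27.4 to 30.0 for the 4 oligodendrocyte markers. Against IL-4, 4 microglia markers fell and 1 rose, 1 of the 2 vessel and connective tissue markers fell and 1 oligodendrocyte marker rose. The 1 neuron marker passed as lower, but it was dim in every group, at 5.83 or less, and that call is not used. The part of these cell types in the ribosomal result against IL-4 was not tested. By role 12 of 19 small subunit genes, 17 of 27 large subunit genes, Rplp1 and Rps27l fell.

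Rps19 fell by 1.78 ± 0.35 against IL-4 (adjusted p = 0.0106), with 13.07, 13.45 and 13.50 on the IL-4 arrays, and Rps16 fell by 1.69 ± 0.39. Rpl12 fell by 1.52 ± 0.23 (adjusted p = 0.00327), more than against unstimulated cells, since its IL-4 values were the higher ones. Rplp1 gave 14.16, 14.25 and 14.33 after IL-4 and fell by 1.48 ± 0.36 (adjusted p = 0.0273). Rpl26 and Rpl28 fell by 1.42 each, Rps4x by 1.40 ± 0.20 (adjusted p = 0.00263), and Rps15 by 1.35 ± 0.25. Rpl13a fell by 1.29 ± 0.25 (adjusted p = 0.00975); its LPS + IFNγ values were 8.50, 7.98 and 8.52.

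Both slides hold these groups, so the difference can be read within each. On slide 1, with replicates 1 and 2 of both groups, the median was -0.98 and 0 genes passed (14 had an unadjusted p under 0.05), and on slide 2, with 1 array each, the median was -0.93. The 12 genes that passed on slide 2 (8.41% of all genes fell there) rest on the spread of the 3 unstimulated arrays alone, since neither group has a second array on it. On slide 1, 0 of all genes passed as well. With slide as a block 27 genes fell (9.62% of all genes). Without LPS + IFNγ replicate 2 the count was 40 (19.7% of all genes) and the median -0.85. Centring on other probes gave 6 genes (2.6% of all genes) and -0.94 with that array. Without it, as a choice made after seeing the data, the same centring gave 16 genes (16.1% of all genes) and -0.46.

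The lists of genes that work with the ribosome had medians nearer to 0. Against unstimulated cells the sign of the medians of elongation, initiation and biogenesis factors, of the polymerase I list and of the regulators was not the same under every alternative; against IL-4 the elongation and TOP list was below 0 under each of the 26, between -0.90 and -0.15. Of 15 measured elongation factors and other TOP messenger RNAs, 2 fell after LPS + IFNγ against unstimulated cells and 0 rose, a share near the 12.2% of all genes that fell, with a median of -0.49 (between -0.62 and 0.06 over the alternatives). Eif3f, a subunit of initiation factor 3, gave 12.45, 12.48 and 12.52 without stimulus and 11.49, 11.26 and 11.41 after it, and fell by 1.10 ± 0.19 (adjusted p = 0.00541). Eef1b2, the exchange factor of the elongation factor that delivers transfer RNA, fell by 1.30 ± 0.36. Against IL-4 Eef1d and Eef1g, subunits of the same exchange complex, fell as well, by 0.79 and 0.73. Of 22 other initiation factors 1 rose (6.12% of all genes did) and 0 fell, with a median of -0.13 (between -0.21 and 0.50 over the alternatives). The gene that rose was Eif6, which binds the large subunit and keeps it from joining the small one, gave 10.08, 9.93 and 10.06 against 11.07, 11.58 and 10.87 and rose by 1.15 ± 0.24 (adjusted p = 0.0127). Against IL-4 Eif6 rose by 0.94, and Eif3i, another subunit of initiation factor 3, fell by 0.73.

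Of 29 ribosome biogenesis factors and 14 genes of RNA polymerase I and its factors, which make ribosomal RNA and assemble it with the proteins, 0 passed against unstimulated cells (limma; 3 and 1 had an unadjusted p under 0.05), with medians of -0.22 and -0.19. Those medians ran from -0.64 to 0.52 and from -0.22 to 0.20 over the alternatives. Without LPS + IFNγ replicate 2, 10 biogenesis factors rose and 2 fell (median 0.41), and cyclic loess gave 6 and 1 (median 0.34), where 36 and 16 of the 52 ribosomal protein genes fell. Without replicate 2, 1308 of all 9304 genes rose and 1878 fell, and with cyclic loess 965 of 9391 rose and 1137 fell. Against IL-4 Npm1, a nucleolar chaperone of ribosome assembly, fell by 0.77 ± 0.20 (adjusted p = 0.0360). Among 16 regulators of ribosomal protein synthesis 1 rose and 3 fell, against 6.12% and 12.2% of all genes. Mxd1, an antagonist of Myc, gave 5.26, 5.36 and 5.57 without stimulus and 8.26, 8.03 and 8.41 after LPS + IFNγ, and rose by 2.84 ± 0.22 (adjusted p = 0.000173). Its unstimulated values were dim, so the size of the rise is uncertain. Its relative Mxi1, Deptor, an inhibitor of mTOR, and Eef2k, the kinase that inhibits elongation factor 2, made up the 3 falls. Each of the 3 was detected on all unstimulated and IL-4 arrays but not above background after LPS + IFNγ, where only an upper bound on its signal is known. Each entered the fit through the groups where it was higher. No fold or test of them is therefore given, and the 3 falls are not read as a result. Mtor and Larp1, which binds TOP messenger RNAs, differed by -0.22 and 0.67 and did not pass (adjusted p = 0.841 and 0.283). Myc was detected on the 3 IL-4 arrays and not above background on the others; it entered the fit through the IL-4 arrays alone, so no test of it is given.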

How the data were processed

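Per the labels' protocols, total RNA was isolated with TRIzol and labelled as biotinylated cRNA. The authors deposited the scanner's intensity of each probe, without background subtraction or scaling, beside a detection p-value, and a second table of log2 values. Partek is named, with no role given, per the submitters' processing notes. Normexp background correction (limma 3.58.1, R 4.3.3, offset 16) was followed by log2, quantile normalization and a filter (detection p under 0.05 on at least 3 of 9 arrays, 16895 probes). All groups entered a single limma fit, with Benjamini-Hochberg adjustment over the kept probes and a threshold of 0.05. The deposited log2 table served as an alternative.

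Of the 45281 probes 34885 carry 1 symbol, 18 several and 10378 none; symbols of measured members equal those of RefSeq. Named genes are the 8 largest changes past the test with non-overlapping arrays per comparison, the stalk genes and paralogs, the probes that disagree, and up to 4 genes per pathway list; a few others were named after their values were seen (Rps3, Rps6, Rps24, Rps25, Rpl13a, Rpl24, Rpl32 among them). Members and lists were chosen with earlier results of these data known. The fit was tested on simulated data. Equal replicate numbers deviated together for IL-4 and unstimulated cells (r = 0.366, 0.427 and 0.30 across probes) but not for LPS + IFNγ. A bead array gives no counts, and the number of arrays limits precision.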

Additional observations from a re-analysis of the deposited data

How the results depend on the processing

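Ribosomal protein genes after LPS + IFNγ against unstimulated cells: the median (-0.83) was below 0 under all 25 alternatives, and none of the 25 genes that fell changed sign under them, but the count of falls (25) moved. It was 1 with median centring over kept probes (median -1.08), where 6.89% of all genes fell. Centring over other probes detected on all arrays gave 0 (2.79% of all genes), and slide as a block gave 1 (4.54%). Under these settings the family's share was below that of all genes. Cyclic loess gave 16 (12.1% of all genes, median -0.46, 1 gene higher), and array weights gave 40 (23.4%, 1 gene higher). On slide 2 alone the median was -0.78. The replicate block left 17 falls, all among the 25 (10.7% of all genes fell). With 1 array left out the count ranged from 6 to 36, rises from 0 to 1 and the median from -0.89 to -0.73. Leaving out unstimulated replicate 1, 2 or 3 gave 8, 9 and 6 falls (7.4%, 8.13% and 6.96% of all genes). Leaving out LPS + IFNγ replicate 2 gave 36 falls (20.2% of all genes) and 1 rise. Chosen after seeing the data, slide as a block without that array gave 24 falls (15.2% of all genes) and 1 rise. Also chosen so, centring over other probes without it gave 7 falls (16.2% of all genes), 1 rise and a median of -0.26. Against IL-4 the count of falls (31) was 2 with median centring over kept probes (median -1.35), a smaller share than the 6.51% of all genes. It was 6 with centring over other probes (2.6% of all genes), 0 on slide 1 (0%) and 24 with the replicate block (9.88%). On slide 2 the median was -0.93. With 1 array left out the count was 12 to 40, with 13 without IL-4 replicate 2 (6.24% of all genes) and 12 without replicate 3 (5.67%). Centring over other probes without LPS + IFNγ replicate 2 gave 16 (16.1%, median -0.46), and cyclic loess gave a median of -0.64. Rps29, which fell against IL-4 (-0.79), stood at 0.02 with cyclic loess (adjusted p = 0.984). The causes were not tested. The deposited log2 table gave 32 and 41 falls (14% and 15.4% of all genes). With only probes detected on all 9 arrays, rises made up 57.2% and 56.5% of all called genes in these comparisons, against 33.5% and 32.8%, and centring over other probes and cyclic loess gave 60.9% and 48.2% against IL-4. For IL-4 against unstimulated cells 0 genes passed under any of the 25 alternatives, the replicate block included.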

Other observations

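After IL-4 the 29 measured ribosome biogenesis factors all lay above their unstimulated means, with a median log2 difference of 0.28 against 0.01 over all genes, although 0 passed the test (limma; 2 had an unadjusted p under 0.05). In 12 of them (41.4%) all IL-4 arrays lay above all unstimulated arrays, against 10.0% of all genes. With array weights 1 passed. Under the other alternatives the median ran from 0.17 without background correction to 0.70 with slide as a block, where 27 of 29 were above 0, and 28 of 29 were above 0 in the deposited log2 table. In the same comparison the 2 measured vessel and connective tissue markers differed by 2.20 and 2.24 and the 1 neuron marker, dim at 5.83 or less, by 0.66, with all IL-4 arrays above. All 9 microglia markers lay below 0 (median -0.76). None of these markers passed the test, and their part in the pattern was not tested. The pattern was noticed after seeing the data.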
